A study of Rattus norvegicus with 16 samples.

Results

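The RNA levels of 10 genes of antigen processing were followed through *Pax8* silencing in rat thyroid cells. They were chosen by name: *Psmb8*, *Psmb9* and *Psmb10* (subunits of the immunoproteasome), *Psme1* and *Psme2* (the proteasome activator PA28), *Tap1* and *Tap2* (the peptide transporter), *Tapbp* (tapasin), *B2m* (the light chain of MHC class I) and *Cd74* (the invariant chain of MHC class II). All 10 had a probe whose accession led to their symbol, out of 8899 genes named on the array, and together they had 11 probes, 2 of them for *B2m*. In si*Pax8* cells, *B2m* RNA was 1.40-fold and 1.51-fold higher than in wt cells by its probes, *Tapbp* was 1.32-fold and *Tap1* 1.31-fold higher, and *Cd74* was 2.01-fold lower. Against siScramble cells, changes past the threshold were found for *B2m*, which was 1.22-fold and 1.23-fold higher, and for *Cd74*, which was 1.24-fold lower.

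MHC class I molecules carry peptides from proteins made inside a cell to its surface, where cytotoxic T cells inspect them. The proteasome cuts the peptides, and on exposure to interferon its catalytic subunits can be replaced by those of the immunoproteasome, while PA28 caps the particle. The TAP transporter moves peptides into the endoplasmic reticulum, where tapasin holds the heavy chain and its light chain, beta-2-microglobulin, beside TAP until a peptide is bound. The invariant chain serves the other route: it fills and escorts MHC class II molecules, which are displayed mainly by professional antigen-presenting cells. Thyroid follicular cells are known to raise both classes in autoimmune thyroid disease.

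PCCl3 is a differentiated follicular cell line from the rat thyroid, grown with TSH, insulin, hydrocortisone and other hormones. RNA of cells given an siRNA against *Pax8* was hybridized to 2-colour Agilent whole genome arrays against RNA of wt cells or of cells given a scrambled siRNA (siScramble), with 4 biological replicates in each comparison and each replicate on 2 arrays of opposite dye, 16 arrays in all. Both siRNAs were delivered with Lipofectamine 2000 at 10 ng/ml, and RNA was isolated at 48 hours. The labels call the remaining condition wild type, while the methods list cells treated with lipofectamine. The legend of the study's immunoblot describes its wt cells as not transfected. Whether the wt cells on the arrays had met the transfection reagent is thus not settled. The design names the same si*Pax8* samples on both sides of the study, so the comparisons are not independent of each other. Nothing else states that replicates came from separate cultures, and p-values measure the spread between these samples only. RNA was pooled over all cells of a culture, so that fewer expressing cells and less RNA per cell cannot be told apart.

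Values are log2 ratios of si*Pax8* over control, in which both dye orientations of a replicate were averaged, and are given as mean ± SD (n = 4 replicates). A gene was called when the Benjamini-Hochberg adjusted p from limma was under 0.005 for each of its probes. Signs come from the dyes in the labels, and run opposite to the wording of the study's own probe counts. The silenced gene checks the labels, and *Pax8* stood at -0.84, -0.57, -0.59 and -0.26 in replicates 1 to 4 against wt cells, a mean of -0.56 ± 0.24 or 67.6% of the wt level (adjusted p = 0.000496). Against siScramble cells it stood at -0.58, -0.29, -0.12 and -0.01, a mean of -0.25 ± 0.25 that did not pass (adjusted p = 0.147). The silencing seen on the array was thus weakest in replicate 4, and without that replicate 4 genes were called against wt cells in place of the 6 reported here. All 7 measured thyroid markers, among them *Tg*, *Slc5a5*, *Tshr*, *Foxe1* and *Dio1*, were well above background on every array, and 6 of them were called lower against wt and 1 against siScramble cells. Of 5 unrelated reference genes, *Hprt1* was called higher against both controls (1.29 ± 0.07 and 0.75 ± 0.05) and the others were not called. The 4 slides each held 2 arrays of each comparison, and per array and channel 51% to 59.5% of spots passed the scanner software's test of being well above background. Every probe of the 10 genes was well above background in both channels of all 16 arrays, with no spot marked as an outlier. Over whole arrays, 2 spots were marked as saturated on 1 array of each comparison and none on the others. The *B2m* probes were the brightest of the 10 genes, at mean log2 intensities of 15.44 and 16.22.

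The stretches before the starts of the 5 genes called higher against wt cells are shown because they share motifs. In RefSeq's assembly GRCr8 the genes *Tap2*, *Psmb8*, *Tap1* and *Psmb9* follow each other inside the MHC, between *RT1-DOb* and *RT1-DMb*, with *Tapbp* on the same chromosome 20. *Tap1* and *Psmb9* are read away from each other, from starts 457 bases apart. Windows of 250 bases before to 50 bases after the start were searched on both strands for GAAANNGAAA, the core of the interferon-stimulated response element (ISRE), to which interferon regulatory factors bind. It matched in 7 of the 10 genes (*Psmb8*, *Psmb10*, *Psme2*, *Tap1*, *Tap2*, *Tapbp* and *B2m*) and in 3.92% of 33469 rat promoters. GGGANTTTCC, a form of the site for NF-kappaB, matched in *Tap1*, *Tapbp* and *B2m* and in 0.362% of all promoters. In *B2m* the pair lay at bases -150 to -141 and -137 to -128, whereas *Tap1* had its ISRE core at -121 to -112 on the other strand and the second motif at -55 to -46. Both *Tap1* matches lie in the stretch between the starts of *Tap1* and *Psmb9*, but beyond the window searched for *Psmb9*. The last 160 bases before the start are given below 5′ to 3′ in lower case, with ISRE cores and NF-kappaB motifs in capitals (GRCr8; B2m chr3:129549170-129549329, plus strand; Tapbp chr20:4967878-4968037, Tap1 chr20:4668544-4668703, Tap2 chr20:4652297-4652456 and Psmb10 chr19:50743293-50743452, all minus strand).
B2m: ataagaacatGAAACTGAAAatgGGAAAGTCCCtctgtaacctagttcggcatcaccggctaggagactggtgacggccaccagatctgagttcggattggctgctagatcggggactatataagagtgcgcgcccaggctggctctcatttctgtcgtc
Tapbp: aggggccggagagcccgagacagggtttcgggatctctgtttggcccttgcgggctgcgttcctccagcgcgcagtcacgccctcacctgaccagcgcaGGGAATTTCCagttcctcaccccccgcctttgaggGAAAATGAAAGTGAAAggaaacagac
Tap1: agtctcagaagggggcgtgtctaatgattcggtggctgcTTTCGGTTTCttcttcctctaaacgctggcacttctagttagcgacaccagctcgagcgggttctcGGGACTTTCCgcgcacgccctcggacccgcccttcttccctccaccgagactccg
Tap2: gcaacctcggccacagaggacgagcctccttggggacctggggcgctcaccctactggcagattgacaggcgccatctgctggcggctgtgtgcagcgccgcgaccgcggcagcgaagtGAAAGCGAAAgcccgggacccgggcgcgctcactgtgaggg
Psmb10: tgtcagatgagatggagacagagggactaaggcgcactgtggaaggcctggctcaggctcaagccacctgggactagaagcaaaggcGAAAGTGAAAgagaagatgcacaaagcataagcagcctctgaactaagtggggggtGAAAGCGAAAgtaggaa

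*Tapbp* holds the NF-kappaB motif at -61 to -52 and then 2 overlapping ISRE cores from -26 to -11, *Tap2* holds a single core at -41 to -32, and *Psmb10* holds cores at -73 to -64 and at -17 to -8. *Psme2*, which is not printed, had its core at -53 to -44, and that of *Psmb8* lay across the start, from -4 to 6. TTCNNNGAA, the gamma-activated site, matched in *Psmb8* alone among the 10 genes and in 8.87% of all promoters. CCAAT, to which NF-Y binds, matched in *Psmb8*, *Psmb9*, *B2m* and *Cd74* and in 37.5% of all promoters, and none of these 4 motifs matched in the window of *Psme1*. The matches describe letters and do not show that a factor was bound.

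**Figure D1:**
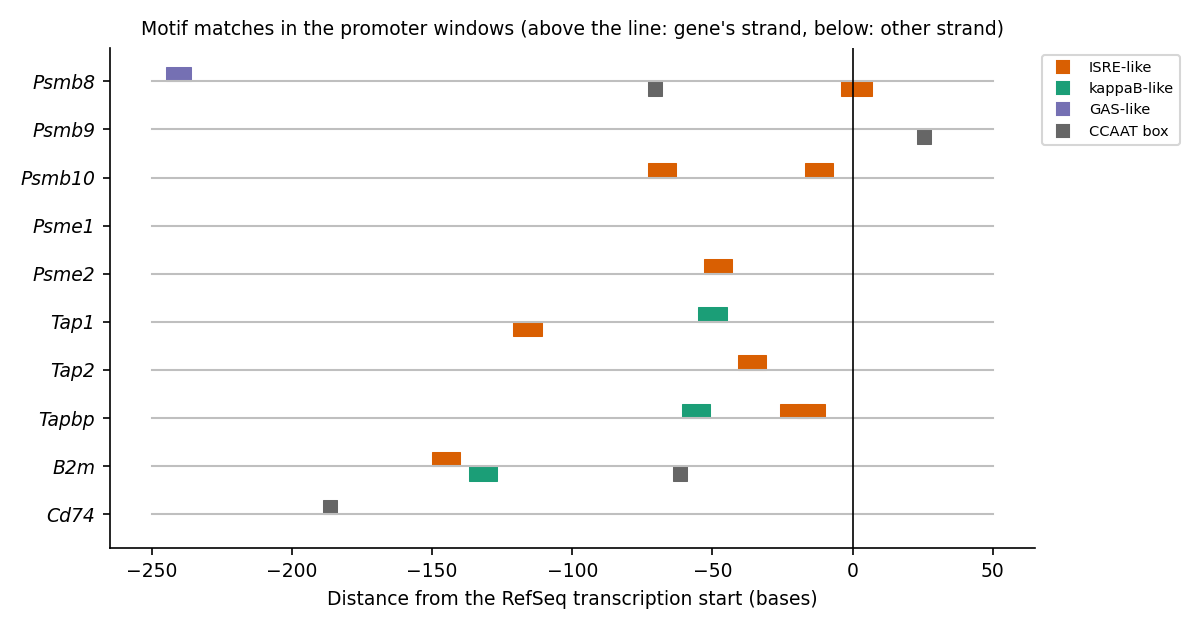
Positions of motif matches around the RefSeq start of each of the 10 genes, with the distance in bases on the x axis, boxes above a line on the strand of the gene and boxes below it on the other strand. ISRE cores lie in the windows of 7 genes, and in *B2m*, *Tap1* and *Tapbp* an NF-kappaB motif lies within the same window.

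The first question was which genes of class I processing differed in RNA level when si*Pax8* cells were set against wt cells. Of the 10 genes, 5 were called higher (*B2m*, *Tapbp*, *Tap1*, *Tap2* and *Psmb10*) and 1 was called lower (*Cd74*), whereas among all 8899 named genes 7.19% were called higher and 9.41% lower. The genes were chosen with earlier results of these data known. Contrasts with all named genes, here and below, are therefore not independent of that choice. The 9 genes of the class I route had a median of 0.23, which in single replicates lay between 0.21 and 0.36, beside a median of -0.01 over all named genes. In all 4 replicates, 6 of the 10 genes were above 0, as were 1686 of all 8899 named genes. *B2m* stood 139th from the top of all named genes, *Tapbp* 245th and *Tap1* 250th, and *Cd74* stood 14th from the bottom. By role, 3 of 3 transport and loading genes were called higher, 1 of 3 immunoproteasome subunits and 0 of 2 PA28 genes (limma, where both PA28 genes had an unadjusted p under 0.05). With the signals corrected by Agilent's software 0 genes were called higher and 1 lower, and with si*Pax8* in Cy3 alone 2 were called higher and 1 lower.

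**Figure D2:**
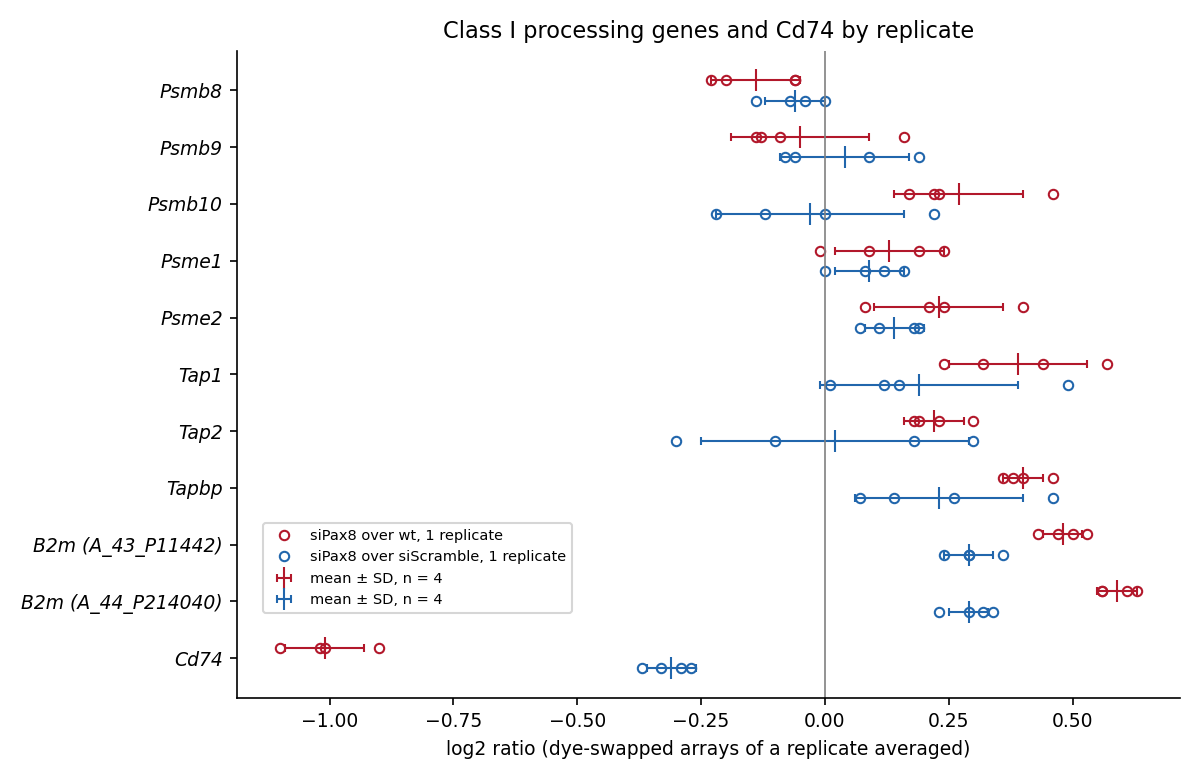
Log2 ratio of si*Pax8* over wt (red) and over siScramble (blue) for each probe of the 10 genes, with open circles for the 4 replicates and a bar for mean ± SD. Circles of the comparisons are apart for both *B2m* probes and for *Cd74*, and mix or touch for every other gene.

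The subunits that cut peptides did not move as one group. *Psmb10*, whose product takes the place of the constitutive subunit *Psmb7*, stood at 0.46, 0.23, 0.22 and 0.17 in replicates 1 to 4 against wt cells, with a mean of 0.27 ± 0.13 (1.21-fold, adjusted p = 0.00228). All 8 arrays were above 0, and replicate 1 lay highest. The call was lost without replicate 2 (0.28, adjusted p = 0.0118), without replicate 3 (0.29, 0.0121) or without replicate 4 (0.31, 0.00511), in the fit of both comparisons with a shared spread (0.27, 0.00845), with si*Pax8* in Cy3 alone (0.21, 0.0734) and with the signals corrected by Agilent's software (0.32, 0.054). *Psmb8*, which replaces *Psmb5*, stood at -0.06, -0.06, -0.23 and -0.20, with a mean of -0.14 ± 0.09 that did not pass (adjusted p = 0.026). All 4 of its replicates were below 0, on the other side from *Psmb10*. *Psmb9*, which replaces *Psmb6*, stood at 0.16, -0.09, -0.13 and -0.14, with a mean of -0.05 ± 0.14 (adjusted p = 0.591, 95% confidence interval -0.16 to 0.06). Its replicate 1 lay apart from the other replicates, which lay close together. Its neighbour *Tap1*, read from the other side of the stretch between their starts, was called higher, and the difference between these neighbours was not tested.

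The constitutive counterparts were not called. *Psmb6* stood at -0.02 ± 0.04 against wt cells (adjusted p = 0.79) and *Psmb7* at -0.22 ± 0.14 (adjusted p = 0.00972), and no probe was named *Psmb5*. *Psme3*, an activator of nuclear proteasomes, stood at 0.13 ± 0.15 (adjusted p = 0.0998). None of these 3 genes was called in either comparison by limma, while 1 of them had an unadjusted p under 0.05 above 0 and 1 below 0 against wt cells, and 2 below 0 against siScramble cells.

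The PA28 genes, whose products form one cap, were not called, with means above 0. *Psme2* stood at 0.40, 0.24, 0.08 and 0.21 against wt cells, with a mean of 0.23 ± 0.13 (1.18-fold). Its adjusted p of 0.00542 missed the threshold by little, and it passed when replicate 3, the lowest, was left out (0.28, adjusted p = 0.00491), with no background correction (0.23, 0.00322), with dim probes left out (0.23, 0.00439), with loess alone (0.27, 0.00265), with the replicate block (0.23, 0.000624), with slide as a random block (0.23, 0.000223) and in the fit of both comparisons (0.23, 0.00207). The absence of a call for *Psme2* therefore depends on the processing. *Psme1* stood at -0.01, 0.19, 0.24 and 0.09, with a mean of 0.13 ± 0.11 (adjusted p = 0.0541). *Psme1* was the single gene of the 10 whose dye orientations differed in sign against wt cells, at 0.27 with si*Pax8* in Cy5 and -0.01 with si*Pax8* in Cy3.

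The transport and loading genes were all called higher against wt cells. *Tapbp* stood at 0.36, 0.46, 0.40 and 0.38 in replicates 1 to 4, with a mean of 0.40 ± 0.04 (1.32-fold, adjusted p = 1.96e-05). *Tap1*, the first chain of the transporter, stood at 0.57, 0.44, 0.24 and 0.32, with a mean of 0.39 ± 0.14 (1.31-fold, adjusted p = 0.000439). *Tap2*, the other chain, stood at 0.30, 0.18, 0.19 and 0.23, with a mean of 0.22 ± 0.06 (1.17-fold, adjusted p = 0.00079). The replicates of *Tapbp* lay close together and those of *Tap1* spread more widely, with replicate 1 highest for both TAP chains. The *Tap2* call was lost without replicate 3 (0.24, adjusted p = 0.00567) or replicate 4 (0.22, 0.00614), in the fit of both comparisons with a shared spread (0.22, 0.0539), with the replicate block (0.22, 0.00733), with si*Pax8* in Cy3 alone (0.21, 0.103) and with Agilent's signals (0.26, 0.074). The *Tap1* call was lost with si*Pax8* in Cy3 alone (0.43, adjusted p = 0.00559) and with Agilent's signals (0.43, 0.0449), and with these signals that of *Tapbp* was lost too (0.46, 0.0101). All 8 arrays were above 0 for each of the 3 genes.

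*B2m* had the highest mean ratio of the 10 genes over wt. Its probe A_43_P11442 stood at 0.53, 0.43, 0.47 and 0.50 against wt cells (mean 0.48 ± 0.04, 1.40-fold, adjusted p = 6.41e-06), and probe A_44_P214040 at 0.61, 0.56, 0.56 and 0.63 (mean 0.59 ± 0.04, 1.51-fold, adjusted p = 1.8e-06). The first probe was printed 10 times on each array, and the means of its single spots ranged from 0.43 to 0.52. The second probe was above the first in all 4 replicates. With Agilent's signals *B2m* averaged 0.56 and was not called (adjusted p = 0.00537).

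*Cd74* moved the other way. It stood at -1.10, -1.02, -0.90 and -1.01 against wt cells, with a mean of -1.01 ± 0.08, or 49.8% of the wt level (adjusted p = 3.57e-07). All 8 arrays lay between -1.22 and -0.89, the orientations gave -0.98 and -1.03, and the slides ranged from -1.11 to -0.94. *Cd74* was called lower against wt cells under every alternative processing tried, with values from -1.25 to -0.97.

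**Figure D3:**
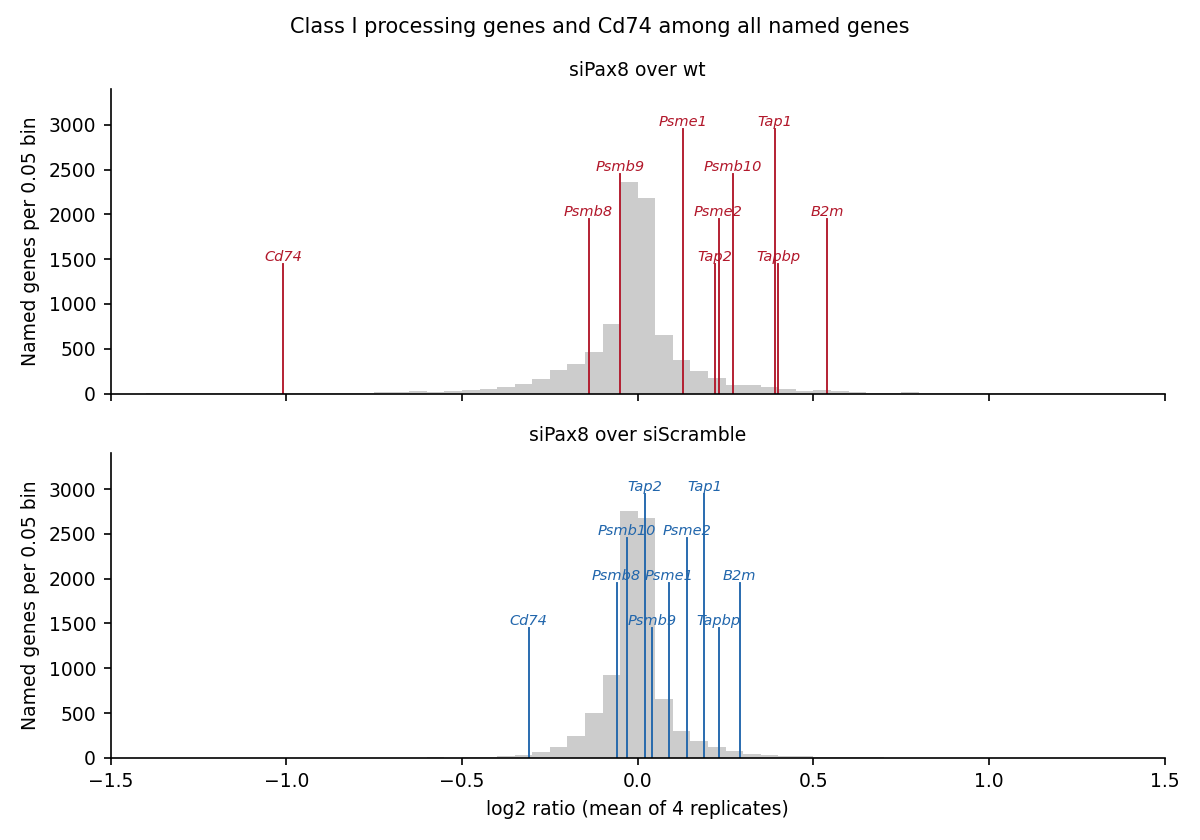
Number of named genes per 0.05 bin of log2 ratio (grey bars) over wt (upper panel) and over siScramble (lower panel), with lines at the means of the 10 genes. *B2m*, *Tapbp* and *Tap1* lie in the upper tail of both distributions, at up to 0.54 and 0.29, and *Cd74* in the lower tail, at -1.01 and -0.31.

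The scrambled siRNA gave a control that had gone through transfection too, and the same question was put to it. Of the 10 genes, *B2m* was called higher and *Cd74* lower, that is 1 in each direction, whereas 1.62% of all named genes were called higher and 1.25% lower. The median of the 9 class I genes was 0.09, between 0.00 and 0.22 in single replicates. *B2m* stood at 0.29, 0.29, 0.36 and 0.24 by its first probe (0.29 ± 0.05, adjusted p = 0.00195) and at 0.29, 0.32, 0.34 and 0.23 by its second (0.29 ± 0.04, adjusted p = 0.00171). *Cd74* stood at -0.33, -0.29, -0.27 and -0.37, with a mean of -0.31 ± 0.05, or 80.4% of the siScramble level (adjusted p = 0.00132). All 8 arrays were above 0 for *B2m* and below 0 for *Cd74*. Neither call survived leaving out any 1 of the 4 replicates: the adjusted p then lay between 0.00545 and 0.0201 for *B2m* and between 0.00553 and 0.0143 for *Cd74*, at means of 0.27 to 0.31 and -0.33 to -0.30. Both calls were also lost with si*Pax8* in Cy5 alone (0.17, adjusted p = 0.0986, and -0.28, 0.00914) and with Agilent's signals (0.28, 0.0525, and -0.41, 0.0219).

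The remaining 8 genes were not called against siScramble cells. *Tapbp* stood at 0.46, 0.26, 0.14 and 0.07 (0.23 ± 0.17, adjusted p = 0.0676), *Tap1* at 0.49, 0.15, 0.01 and 0.12 (0.19 ± 0.20, 0.179) and *Tap2* at 0.30, 0.18, -0.30 and -0.10 (0.02 ± 0.27, 0.946). Replicate 1 was the highest for all 3, and *Pax8* was lowest in that replicate too. Of the other class I genes, *Psmb8*, *Psmb9* and *Psmb10* were also highest there, and *B2m*, *Psme1* and *Psme2* were not. Of the unrelated reference genes, *Gapdh* (-0.06), *Actb* (-0.02) and *Ppia* (-0.14) were lowest in replicate 1 over siScramble, and *Hprt1* and *Tbp* were not. A link to the level of *Pax8* was not tested. *Psme2* stood at 0.11, 0.07, 0.19 and 0.18 (0.14 ± 0.06, adjusted p = 0.0357) and *Psme1* at 0.12, 0.16, 0.08 and 0.00 (0.09 ± 0.07, 0.166). The immunoproteasome subunits had means of -0.06 ± 0.06 for *Psmb8*, 0.04 ± 0.13 for *Psmb9* and -0.03 ± 0.19 for *Psmb10*, with adjusted p of 0.317, 0.796 and 0.894. Replicate 1 was again the highest for *Psmb10*, at 0.22, and replicate 4 the lowest, at -0.22.

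The orientation of the dyes entered several of these values. With si*Pax8* in Cy5 the *Tapbp* ratio was 0.22 over wt and -0.01 over siScramble, and with si*Pax8* in Cy3 it was 0.58 and 0.47. *B2m* likewise gave 0.39 and 0.17 in Cy5 but 0.69 and 0.41 in Cy3, and *Tap2* over siScramble gave -0.18 and 0.22. *Cd74* was nearly the same in both, at -0.98 and -1.03 over wt. The orientations had the same sign for 9 of the 10 genes over wt and for 5 of 10 over siScramble (*Psmb9*, *Psme2*, *Tap1*, *B2m* and *Cd74*). A dye effect cancels in the mean of a replicate, since each had both orientations, and its part in single orientations was not tested. Within the slides, each a mean of 2 arrays of a comparison, the sign held in all 4 slides for 9 genes over wt and for 6 over siScramble.

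**Figure D4:**
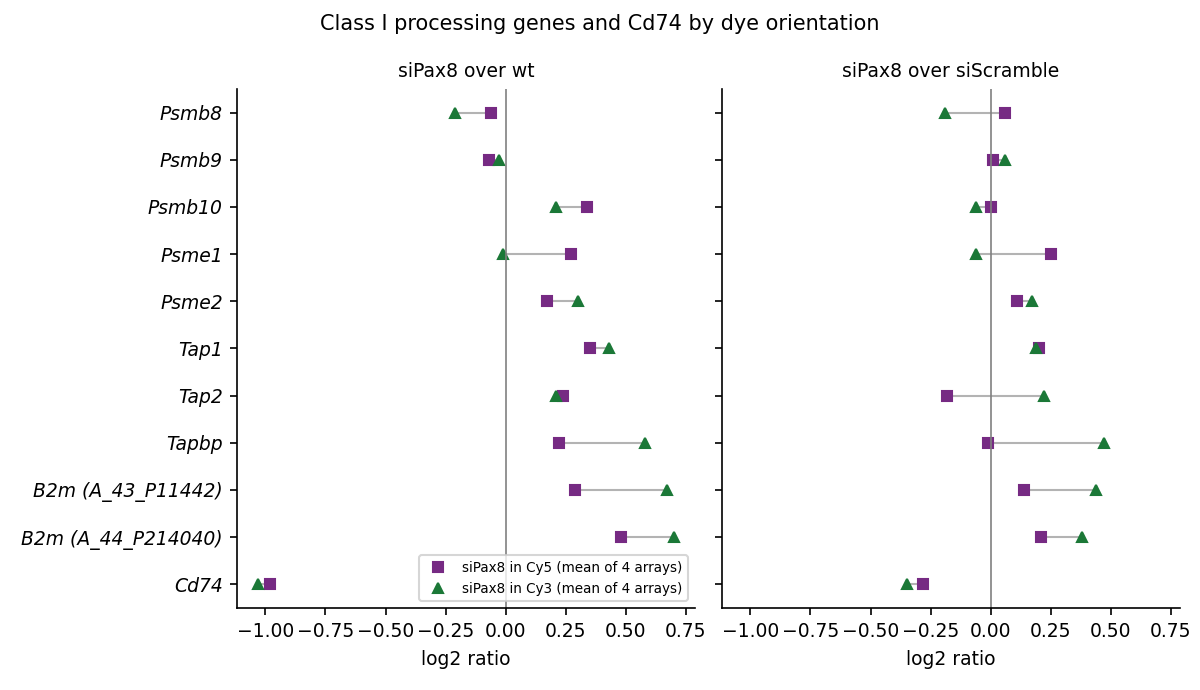
Mean log2 ratio of the 4 arrays with si*Pax8* in Cy5 (squares) and of the 4 with si*Pax8* in Cy3 (triangles), for each probe and comparison. *Tapbp* and *B2m* lie further right in Cy3 in both panels (0.58 against 0.22 for *Tapbp* over wt), and the symbols of *Cd74* nearly coincide.

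Since a call against one control and none against the other does not show a difference, the difference itself was tested on the 8 averaged ratios, as the wt comparison minus the siScramble comparison. It was called for *Cd74*, at -0.69 with a standard error of 0.05 (95% confidence interval -0.80 to -0.59, adjusted p = 1.38e-05). None of the 10 genes was called higher against wt than against siScramble cells by limma. An unadjusted limma p under 0.05 in that direction was found for 3 of them and for 962 of all 8899 named genes. That test took the comparisons as separate groups, although they share the si*Pax8* samples. Because of this sharing, the difference amounts to the log2 ratio of siScramble over wt cells. A shift over wt can thus include one that siScramble cells also had. With the replicate number as a block, *Psmb10* was called higher too (0.30, adjusted p = 0.00149) and *Pax8* passed (-0.32, adjusted p = 0.00194). Among all named genes 1.7% were called higher and 2.74% lower. The *B2m* probes gave 0.19 (adjusted p = 0.0102) and 0.30 (adjusted p = 0.000698), so that 1 of its probes passed. The replicates of the comparisons did not overlap for *B2m*, above, and *Cd74*, below, 1 gene of 10 in each direction, and for 8.93% and 9.93% of all named genes, so this count is near the background.

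For the class I genes without a call the intervals of the difference remained wide in this fit of separate groups. With the replicate block the limma adjusted p was 0.00149 for *Psmb10*, 0.0141 for *Tap1*, 0.133 for *Tap2* and 0.121 for *Tapbp*. The values that follow are from the fit of separate groups. *Psmb10* differed by 0.30 (95% confidence interval 0.10 to 0.50, adjusted p = 0.0628), *Tap1* by 0.20 (-0.02 to 0.42, 0.277), *Tap2* by 0.20 (-0.04 to 0.44, 0.327) and *Tapbp* by 0.17 (0.01 to 0.33, 0.2). *Psmb8*, *Psmb9*, *Psme1* and *Psme2* differed by -0.07, -0.08, 0.04 and 0.09, with adjusted p from 0.449 to 0.798. *Pax8* itself differed by -0.32 (-0.61 to -0.02, adjusted p = 0.186).

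Related genes were counted from lists of the same pathway. Of 33 class I heavy chain genes and relatives listed, 18 had a named probe, and 13 of these were called higher against wt cells and 0 lower (no gene of the list had an unadjusted p under 0.05 below 0), with a median of 0.36. Against siScramble cells 2 were called higher, with a median of 0.23. The largest means over both comparisons among those called were those of *RT1-CE16* (0.55 ± 0.10 over wt, 0.35 ± 0.12 over siScramble), *RT1-CE3* (0.52 ± 0.09 and 0.36 ± 0.13), *RT1-S3* (0.62 ± 0.12 and 0.25 ± 0.07), *RT1-A2* (0.50 ± 0.06 and 0.31 ± 0.09), *RT1-CE2* (0.48 ± 0.09 and 0.29 ± 0.09) and *RT1-CE1* (0.44 ± 0.05 and 0.29 ± 0.07). These genes are near-identical copies of each other, so their probes can pick up the same RNA and are not separate observations. The light chain *B2m*, which lies on chromosome 3 outside the MHC, had means of 0.48 and 0.59 over wt and 0.29 over siScramble.

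Not every gene listed for the steps around loading rose. Of 8 genes for other loading and trimming steps, 5 were measured and 3 were called lower against wt cells. *Pdia3*, the oxidoreductase joined to tapasin, stood at -0.47 ± 0.27 over wt and -0.25 ± 0.19 over siScramble, *Hspa5*, a chaperone of the endoplasmic reticulum, at -0.19 ± 0.04 and -0.39 ± 0.03, and *Sec61a1*, a channel subunit, at -0.17 ± 0.03 and -0.08 ± 0.08. *Hspa5* was the 1 gene of the list called against siScramble cells, and none was called higher by limma in either comparison, with 1 gene against wt at an unadjusted p under 0.05. The median of the list was -0.17 over wt and -0.15 over siScramble.

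Among genes of class II presentation, the route of *Cd74*, the calls against wt cells went in both directions. *RT1-Ba*, *RT1-DOa*, *RT1-DOb* and *Ctss* were near background, above it in a channel on at most 1 array per comparison. Their values therefore say little. Of 15 listed, 12 were measured, 2 of them called lower against wt cells and 2 higher, and none was called against siScramble cells by limma (1 higher and 4 lower at an unadjusted p under 0.05). *RT1-Da*, a class II alpha chain, stood at -0.88 ± 0.04 over wt and -0.26 ± 0.03 over siScramble, and *RT1-DMa*, which edits class II peptides, at -0.50 ± 0.04 and -0.25 ± 0.08. *RT1-Db1*, a class II beta chain singled out after its values were seen, averaged -0.83 over its 3 probes and was not called, since not every probe passed (adjusted p up to 0.106). *RT1-Bb*, singled out in the same way, averaged -0.36 over its 2 probes, with adjusted p of 6.22e-07 and 0.31. The 2 called higher were lysosomal proteases, *Ctsl* (cathepsin L) at 0.87 ± 0.09 over wt and -0.02 ± 0.14 over siScramble, and *Lgmn* (legumain) at 0.18 ± 0.07 and 0.25 ± 0.07. *Ciita*, the master regulator of class II genes and likewise singled out, stood at -0.18 ± 0.09 over wt (adjusted p = 0.00677) and was not well above background on every array.

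Of 16 factors listed as able to act on these genes, 12 were measured, with 4 called higher and 1 lower against wt cells and none against siScramble cells by limma (4 higher and 3 lower at an unadjusted p under 0.05). *Irf9* stood at 1.84 ± 0.19 over wt and 0.21 ± 0.16 over siScramble, *Irf2* at 0.51 ± 0.09 and 0.13 ± 0.13, and *Stat2* at 0.41 ± 0.18 and 0.14 ± 0.09. *Rfxap*, a subunit of the RFX complex that binds MHC promoters, stood at -0.39 ± 0.03 and -0.11 ± 0.06. Irf9 and Stat2 are proteins of a complex that can bind ISRE sequences. Its binding to the stretches printed above, and its part in these values, was not tested.

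Of 17 blood and immune cell markers, 12 were measured, and *Cd8a*, *Itgam* and *Pecam1* were well above background on no array in either channel. *Cd3g*, *Cd4*, *Cd79b* and *Hbb* were so in a channel on at most 1 array per comparison, and *Adgre1* and *Csf1r* on some arrays only. Ratios of probes near background lie close to 0, so these values say little. *Cd68*, *Lyz2* and *Cd14* were well above background on all arrays. The summed intensity of the list ranged from 1780 to 2130 in si*Pax8* and from 1710 to 1860 in wt cells on the arrays of the wt comparison, and from 1760 to 2060 and 1690 to 2000 on those of the other. *Cd68*, a lysosomal protein of macrophages and other cells, was called higher against wt cells (0.30 ± 0.12) and stood at 0.00 ± 0.09 against siScramble cells, and none of the others was called. The part of such cells in the values of the 10 genes was not tested.

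**Figure D5:**
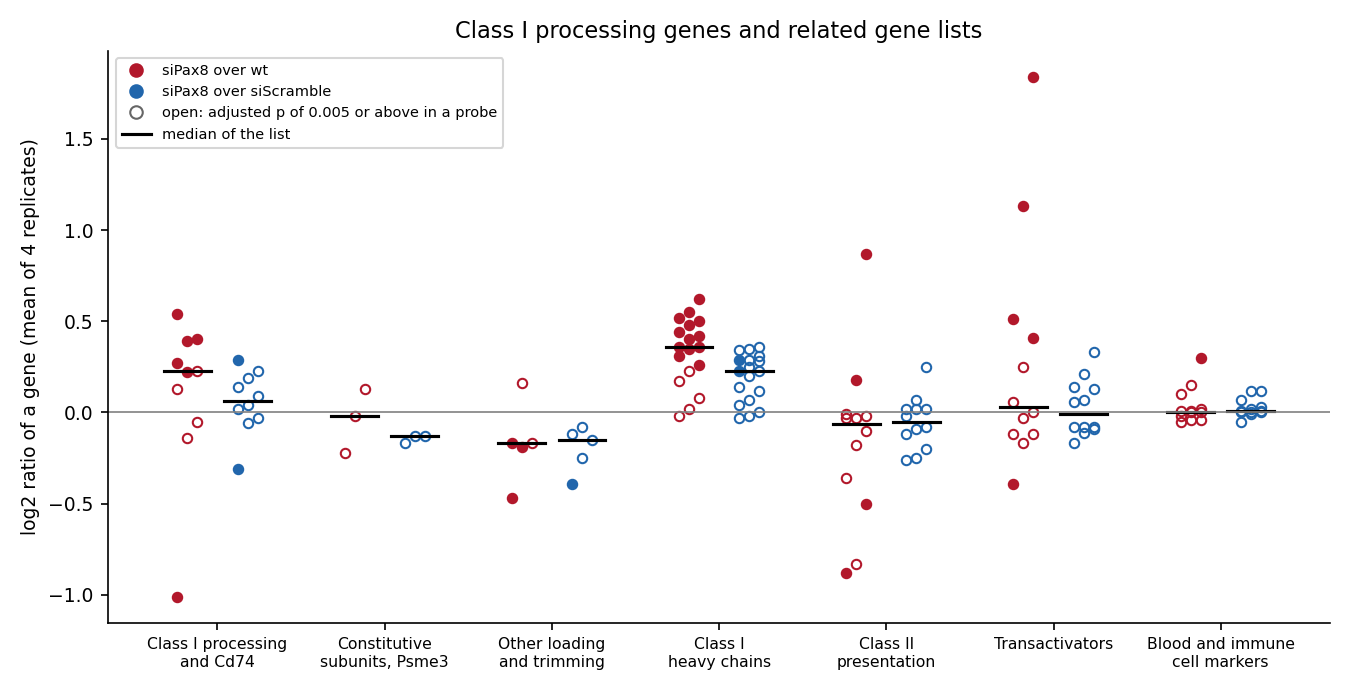
Log2 ratio of each measured gene of 7 lists over wt (red) and over siScramble (blue), filled where every probe had an adjusted p under 0.005, with a black bar at the median of the list. Class I heavy chains lie above 0 as a list (medians 0.36 and 0.23), and blood and immune cell markers lie around 0 (0.00 and 0.01). Of these 12 markers, 3 were well above background on all arrays, and ratios of probes near background lie close to 0.

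The class I genes were also compared replicate by replicate. The mean of the 9 genes was 0.31, 0.23, 0.17 and 0.18 in replicates 1 to 4 over wt, and 0.24, 0.12, 0.02 and 0.02 over siScramble. The Pearson r of the single genes with this mean, over the 8 values, was 0.971 for *Psmb10*, 0.959 for *Tap1*, 0.879 for *Tap2*, 0.876 for *Tapbp* and 0.634 for *B2m*. It was 0.46 for *Psmb9*, 0.427 for *Psme2*, 0.126 for *Psme1* and 0.048 for *Psmb8*, and -0.679 for *Cd74*. Outside the list the patterns most like it were those of *Areg* (0.983), *Vhl* (0.972), *Rps6kb1* (0.971), *Upf3a* (0.971) and *Creb1* (0.969). *Areg*, an epidermal growth factor receptor ligand, stood at 0.45 ± 0.14 over wt (adjusted p = 0.000179) and 0.17 ± 0.26 over siScramble, with its highest value in replicate 1 of both. *Rps6kb1* had means of 0.08 and -0.09, and *Creb1* 0.06 and -0.08. These correlations describe 8 values that share the si*Pax8* samples, and for the genes of the list the mean includes the gene itself.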

How the data were processed

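Labels gave condition, dye and replicate of the 16 arrays. The authors deposited scanner files with fluorescence intensities of each spot and its background, intensities corrected by Agilent's software, and log10 ratios of Cy5 over Cy3 made from these. Per the file headers the software was Feature Extraction 10.1.1.1 and the scan 5 µm, where the methods give an older release and larger pixels. A further deposited table held normalized log2 ratios, with column medians of -0.00011 to 0.0068. Its columns correlated with the present ratios at -0.999 to -0.993, which makes their direction control over si*Pax8*. How it was background-corrected is not given in the sources used here.

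Mean intensities were background-corrected (normexp, offset 50), loess-normalized within arrays and quantile-normalized between channels with limma 3.58.1, statmod 1.5.0 and the package data.table (version 1.17.8) under R 4.3.3. The 1639 control spots of 45018 were removed, and these and outlier spots had weight 0 in loess. Outlier spots otherwise stayed in. Spots of a probe, then dye swaps, were averaged. Dye-swapped arrays of the same replicate deviated together (correlations 0.12 to 0.51). Each comparison was fitted with lmFit and eBayes, with Benjamini-Hochberg adjustment over 41012 probes. Symbols came from RefSeq accessions (10768 probes, 8899 genes), as did promoters (GRCr8). The file headers name the build rn4, so its coordinates were not used. Fits were tested on simulated data. Alternatives covered background, signals, normalization, dim probes, dyes, blocks, slides, probes, threshold and replicates.

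The 10 genes and all lists were chosen with earlier results of these data known. Named are these genes, *Pax8*, at most 6 called genes per list (largest mean size over both comparisons), *Psmb6* and *Psmb7*, and the 5 genes most correlated with the class I mean. The lists are the 10 genes, constitutive subunits and activators, other loading and trimming, class I heavy chains, class II presentation, transactivators, thyroid identity, blood and immune markers, and reference genes. The number of arrays limits the precision. Some list genes that this rule covers are not reported here by name.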

Additional observations from a re-analysis of the deposited data

Results flagged for a closer look

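Replicate 1 of *Psmb9* over wt stood at 0.16, further from the remaining replicates (-0.09, -0.13 and -0.14) than the spread of 4 values usually allows by Dixon's criterion. Chance marks about 1 in 20 groups in this way, and *Psmb9* was not called with that replicate in or out (without it the mean was -0.12).

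The change of *Cd74* differed between the comparisons by -0.69 (limma adjusted p = 1.38e-05), with means of -1.01 over wt and -0.31 over siScramble and 4 of 4 replicates below 0 in each. The *B2m* probe A_44_P214040 differed by 0.3 (limma adjusted p = 0.000698), with means of 0.59 and 0.29 and 4 of 4 replicates above 0 in each, whereas probe A_43_P11442 of that gene differed by 0.19 and did not pass (limma adjusted p = 0.0102).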

How the results depend on the processing

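With the signals corrected by Agilent's software, 1 of the 10 genes (*Cd74*) was called over wt in place of 6, and 0 over siScramble in place of 2 (by limma; 5 higher and 1 lower at an unadjusted p under 0.05 in the main processing), although the class I medians stayed between 0.20 and 0.28 over wt and between 0.06 and 0.17 over siScramble under all alternatives run, those without a replicate included. *Pax8* over wt was then -0.58 and not called (limma adjusted p = 0.0201). With si*Pax8* in Cy3 alone 3 genes were called over wt and *Pax8* stood at -0.47 (limma adjusted p = 0.0185), and with si*Pax8* in Cy5 alone 0 genes were called over siScramble. The cause was not tested, beyond the fact that the single orientations hold fewer arrays. Leaving out 1 replicate gave 4 to 6 calls over wt and 0 in each case over siScramble, 1 call for the difference, and a *Pax8* ratio over wt of -0.66 to -0.47, not called without replicate 3.

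The difference between the comparisons was called for 2 genes rather than 1 with slide as a random block, with the brightest probe of a gene and at an adjusted p under 0.05, where *B2m* joined *Cd74*. The replicate numbers were not used as pairs in the main test of this difference, since deviations of same-numbered samples correlated with 0.39, 0.17, 0.04 and 0.56, not all above 0.1. A pairing is not excluded, since 3 of 4 correlated best with their own number and both comparisons draw on one set of si*Pax8* samples by the design. With the replicate block 2 genes were called for the difference, *Psmb10* (0.30, limma adjusted p = 0.00149) joining *Cd74*, and *Pax8* passed too (-0.32, limma adjusted p = 0.00194). Within each comparison the replicate block gave 6 calls over wt, with *Tap2* lost (limma adjusted p = 0.00733) and *Psme2* gained (0.000624), and 2 over siScramble.

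Of 500 values of single genes under an alternative, 454 kept their side of the threshold, and no called value turned its direction. Most of the 500 belong to genes not called in the main processing, so this count says little about how stable the calls were. Leaving out outlier spots, chosen after seeing the data, changed no call of the 10 genes. Under the scalings the median of class I heavy chains lay between 0.36 and 0.39 over wt and between 0.21 and 0.25 over siScramble, that of class II genes between -0.07 and -0.05 and between -0.09 and -0.04, that of other loading genes between -0.19 and -0.15 and between -0.16 and -0.15, and that of transactivators between 0.03 and 0.06 and between -0.02 and 0.02. With 4 replicates, shifts near the SD between them lie at the limit of what can be called.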
